A study of Homo sapiens with 24 samples.

Results

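The genes described here encode the enzymes and sugar carriers of glycolysis and of the pentose phosphate pathway. They were taken from a list of 38 gene symbols, and a gene was read from the transcript cluster that carries its symbol and no other, the cluster with the highest mean where there were several. By this rule 35 of the 38 members were measured, among 18417 genes in all. PGAM1 was not measured because each of its 5 clusters is shared with PGAM4, and no cluster with a single symbol was matched to SLC16A1 or SLC16A3, the lactate carriers. TPI1 had 2 such clusters and every other measured member had 1.

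RNA was measured in H2009, H441, A549 and H460, established lines of non-small cell lung cancer (NSCLC) that carry mutant K-ras. The study classes H2009 and H441 as K-ras dependent, and A549 and H460 as K-ras independent. In each line, cells that stably express δ193, an shRNA against the coding region of PKCδ, were compared with cells that express δscr, a scrambled shRNA that targets no transcript. Both shRNAs were delivered by lentivirus under puromycin selection, and δ193 was the only PKCδ shRNA on the arrays. An shRNA effect that does not run through PKCδ therefore cannot be told apart from depletion of PKCδ. There were 3 biological replicates in each of the 8 groups, 24 arrays in all.

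Glycolysis takes up glucose, traps it as a phosphate and splits it into triose phosphates, which are oxidized to pyruvate and, in many tumor cells, passed on to lactate. Hexokinase and phosphofructokinase catalyze the steps near its top that are in practice irreversible, and several isoforms of each exist. The pentose phosphate pathway leaves glycolysis at glucose 6-phosphate: its oxidative arm makes NADPH, and its non-oxidative arm exchanges sugars between ribose 5-phosphate, the precursor of nucleotides, and glycolysis.

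All values are log2 array intensities after RMA, and a change is the δ193 mean minus the δscr mean of a line on that scale. A gene was called changed at a Benjamini-Hochberg adjusted p under 0.05 over all 18417 genes, from limma, together with a fold of at least 25%, which means that the higher mean exceeded the lower by 25% or more on the linear scale. PRKCD, which encodes PKCδ, lay lower on every δ193 array than on any δscr array of its line, with changes between -2.40 in H441 and -1.26 in A549. Array medians were between 4.78 and 4.91. The 3 δ193 arrays of H441 correlated at as little as 0.982, against at least 0.992 within every other group, and the spread between replicates in H441 had a variance 2.44 times that of a typical other line, taken as the median. Of 8 epithelial markers, the keratins KRT7, KRT8 and KRT18 were at 10.8 to 12.6 on all arrays, while EPCAM, CDH1, KRT19, CLDN4 and ELF3 varied between lines, with lowest values of 4.52 to 5.67. Of 5 immune markers, the leukocyte genes PTPRC and CD3E were at 2.58 to 4.25 and the lysosomal CD68 at 9.15 to 10.7, and the 7 fibroblast and endothelial markers lay between 3.35 and 6.90. Mean levels of the 8 epithelial markers on single arrays were 8.21 to 8.43 in δ193 and 8.68 to 8.90 in δscr cells of H441, and 10.1 in δ193 and 10.3 to 10.4 in δscr cells of H2009. CDH1 fell by 1.20 in H441, and ELF3 fell by 0.93 in the H2009 line and by 0.88 in the H441 line. KRT19 fell by 0.55 in H441 and rose by 1.20 in H460, and CLDN4 rose by 0.58 in A549. LYZ rose by 1.09 and CD14 fell by 0.75 in A549, CD14 rose by 0.57 in H460, and PECAM1 fell by 0.51 in H441. The part of these shifts in the results below was not tested.

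Calls were made for 3 of the 35 members in H2009 (8.57%, against 4.91% of all genes), 5 in H441 (14.3%, against 14.3%), 5 in A549 (14.3%, against 4.63%) and 2 in H460 (5.71%, against 5.45%). In H441 and H460 the share of members was thus close to that of all genes. With 1 array of the line left out, the count was 2 to 4 in A549 (2 without δ193 replicate 3, and 3 without δ193 replicate 2 or δscr replicate 1 or 2) and 1 to 4 in H2009 (1 without δscr replicate 1). RPIA and TKT were higher and FBP1 was lower in H2009, HK2, PFKM, PFKP and RPIA were higher and PGM1 was lower in H441, HK1 and PFKM were higher and PFKFB3, PRPS1 and PRPS2 were lower in A549, and HK2 and SLC2A1 were higher in H460. Among all genes, the calls were 2.66% higher and 2.25% lower for H2009, 7.09% higher and 7.22% lower for H441, 2.05% higher and 2.58% lower for A549, and 2.01% higher and 3.44% lower for H460. In all, 12 members were called in at least 1 line (34.3%, against 22.5% of all genes) and 3 of them, HK2, PFKM and RPIA, in at least 2 lines (8.57%, against 5.42%).

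The median change of the 35 members was small in every line, at 0.0046 for H2009, 0.068 for H441, 0.055 for A549 and -0.050 for H460, beside medians of 0.014, 0.0015, 0.0055 and 0.013 over all genes in the same order of lines. The δ193 and δscr arrays did not overlap for 14 members in H2009 (40% of members, against 25.9% of all genes), 11 in H441 (31.4%, against 21.3%), 12 in A549 (34.3%, against 24%) and 15 in H460 (42.9%, against 34.2%). In bulk RNA, fewer cells that express a gene and less of its RNA per cell cannot be told apart.

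**Figure D1:**
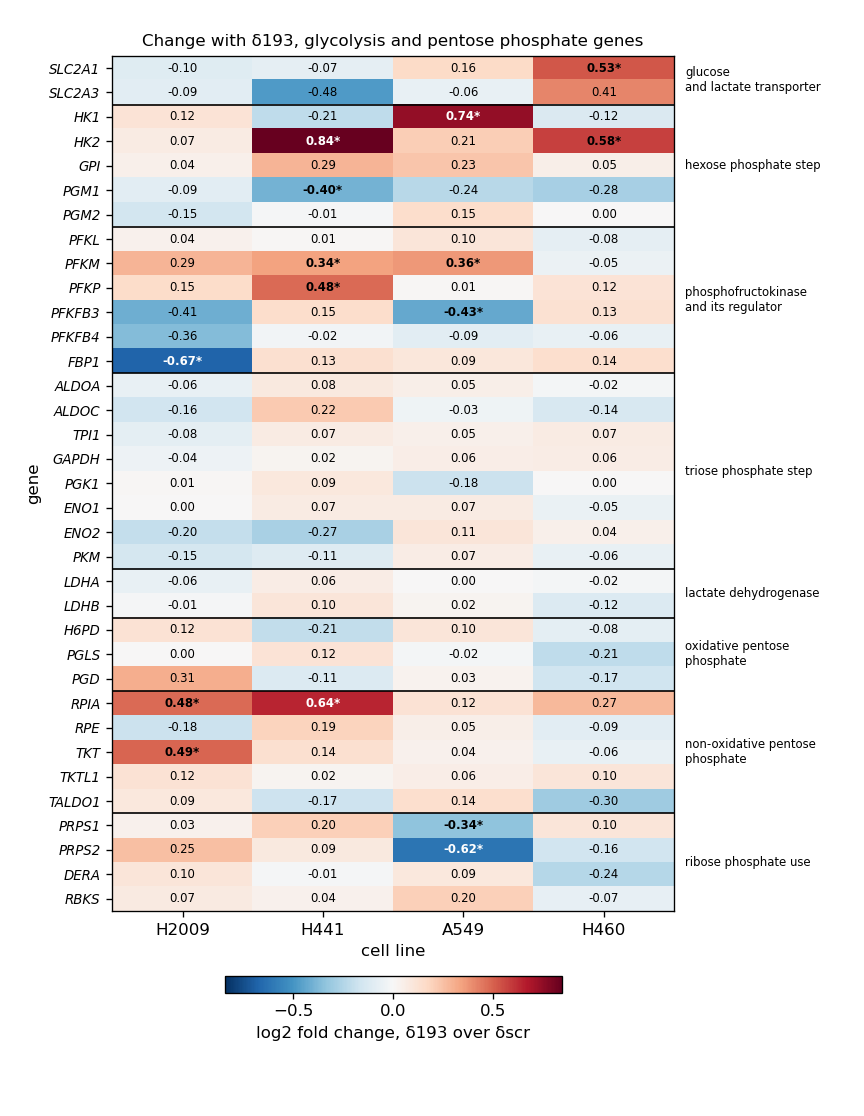
Change of each measured member (rows, by role in the pathway) in each line (columns), as the δ193 mean minus the δscr mean on the log2 scale, with an asterisk for a called change. The marked cells lie among the hexokinases, phosphofructokinases, glucose carriers and pentose phosphate members, and at PGM1, PFKFB3 and FBP1. The 40 cells from aldolase to lactate dehydrogenase hold none.

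Glucose carriers are the first members of the pathway. SLC2A1 (GLUT1, transcript cluster 7915472), the carrier for basal glucose uptake in most cells, read 10.60, 10.62 and 10.69 on the δ193 arrays of H460, against 10.11, 10.05 and 10.18 on the δscr arrays. Every δ193 array of that line was thus above every δscr array, and the change was 0.53 (standard error 0.089, adjusted p = 0.000486 from limma). SLC2A1 was not called in H2009 (-0.10), H441 (-0.07) or A549 (0.16), and its change differed among the lines (adjusted p = 0.00329, limma F test). SLC2A3 (GLUT3), a carrier of high affinity known from neurons, changed by -0.48 in H441 and 0.41 in H460 and passed in neither line (adjusted p = 0.0991 and 0.289 from limma).

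Hexokinases phosphorylate glucose on entry, and both isoforms among the members, HK1 and HK2, were called, in different lines. HK3 and HKDC1, measured on a further list described below, were called in no line. HK2 (transcript cluster 8042942), the inducible isoform of muscle and many tumors, is shown with its promoter because it was called in a K-ras dependent and in a K-ras independent line. RefSeq (GRCh38.p14) gives HK2 a pair of start sites, and a window of 300 bases around each follows, on the plus strand at chr2:74833877-74834176 and at chr2:74834920-74835219. Capitals mark CACGTG, the E-box, and ACGTG, the core of the hypoxia response element, which reads CACGT where it lies on the other strand and is part of every CACGTG.
HK2, first start: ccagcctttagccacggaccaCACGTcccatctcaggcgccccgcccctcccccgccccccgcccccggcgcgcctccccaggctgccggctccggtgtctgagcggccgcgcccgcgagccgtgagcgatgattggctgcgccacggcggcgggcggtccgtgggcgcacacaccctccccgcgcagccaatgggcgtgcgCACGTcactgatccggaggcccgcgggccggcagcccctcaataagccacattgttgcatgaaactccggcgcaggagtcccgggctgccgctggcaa
HK2, second start: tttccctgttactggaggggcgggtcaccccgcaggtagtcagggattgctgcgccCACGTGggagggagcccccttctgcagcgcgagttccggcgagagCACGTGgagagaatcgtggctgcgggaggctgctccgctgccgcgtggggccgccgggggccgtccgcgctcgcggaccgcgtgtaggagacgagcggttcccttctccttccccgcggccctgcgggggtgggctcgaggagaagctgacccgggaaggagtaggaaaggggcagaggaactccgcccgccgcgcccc
The first window holds ACGTG at 2 places and the second holds CACGTG at 2 places. A match shows only that these letters are present. PFKM was also called in a line of each class. Of its 7 windows, not printed here, 2 that overlap hold ACGTG, at the same place, and none holds CACGTG.

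In H441, HK2 read 9.55, 9.49 and 9.19 on the δ193 arrays, against 8.49, 8.59 and 8.62 on the δscr arrays. In H460 the δ193 arrays read 8.73, 8.71 and 8.82 and the δscr arrays 8.07, 8.16 and 8.29. The groups did not overlap in either line, and the changes were 0.84 in H441 (standard error 0.114, adjusted p = 1.81e-05 from limma) and 0.58 in H460 (adjusted p = 0.00236 from limma). In A549, with the lowest δscr level of HK2, the change was 0.21 (adjusted p = 0.428 from limma), and in H2009 it was 0.07 (adjusted p = 0.854). HK2 was also called for its mean change over the 4 lines (0.42, standard error 0.0572, adjusted p = 1.19e-05 from limma), although its change differed among them (adjusted p = 0.00548, limma F test).

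HK1 (transcript cluster 7928019), the isoform found in most tissues, was called in A549 alone, at 7.50, 7.59 and 7.61 on the δ193 arrays, against 6.77, 6.79 and 6.91 on the δscr arrays. The change of 0.74 (standard error 0.0831, adjusted p = 3.39e-06 from limma) was measured from the lowest δscr mean of HK1 among the lines. The other changes were 0.12 in H2009, -0.21 in H441 and -0.12 in H460, and the difference among the lines passed (adjusted p = 1.69e-05, limma F test). So the 2 hexokinases among the members were called in lines that did not coincide, HK1 in A549 and HK2 in H441 and H460.

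GPI, which converts glucose 6-phosphate to fructose 6-phosphate, passed the adjusted p in H441 (0.29, adjusted p = 0.0193 from limma) but stayed under the 25% fold. PGM1 (transcript cluster 7901951), the phosphoglucomutase that links glucose 6-phosphate with glycogen, fell by 0.40 in H441 (standard error 0.0853, adjusted p = 0.00204 from limma). Its δ193 arrays read 9.07, 8.81 and 9.06, against 9.41, 9.47 and 9.25 on the δscr arrays. All δ193 arrays were also below the δscr arrays in A549 (-0.24) and H460 (-0.28), without a call (adjusted p = 0.131 and 0.0558 from limma). PGM1 is called down in 1 line, then, and points the same way in the others, with -0.09 in H2009.

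**Figure D2:**
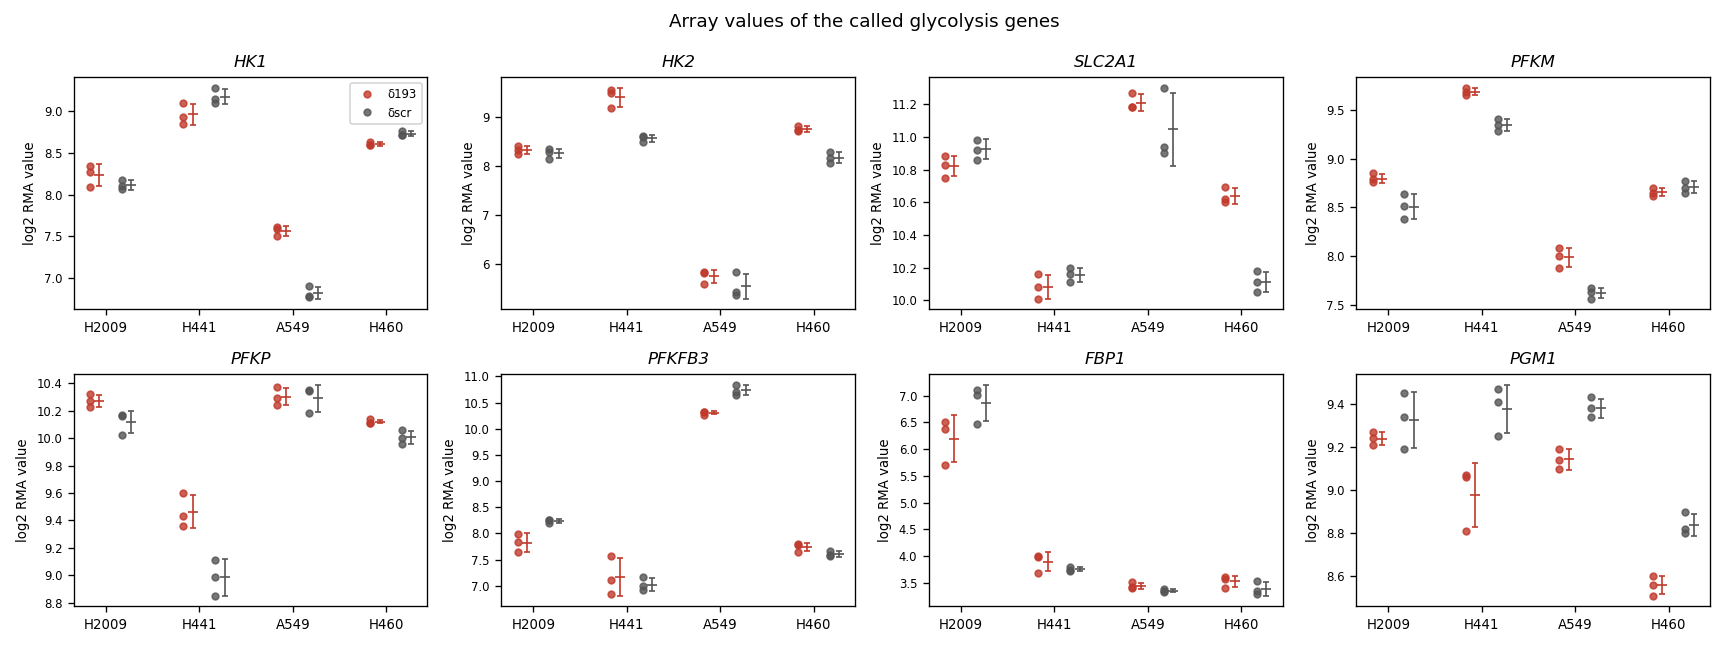
Log2 RMA value of each array for members at the top of glycolysis, with the δ193 points left of the δscr points in each line and bars for the mean and SD of 3 arrays. The δ193 points of HK2 lie above the δscr points in H441 and H460, those of HK1 in A549 and those of SLC2A1 in H460.

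Phosphofructokinase commits fructose 6-phosphate to glycolysis, and the muscle and platelet isoforms were called upward while the liver isoform, PFKL, was called in no line (changes of -0.08 to 0.10). PFKM (transcript cluster 7955078) read 9.69, 9.73 and 9.66 on the δ193 arrays of H441, against 9.35, 9.29 and 9.41 on the δscr arrays. In A549 it read 8.0, 7.88 and 8.08 with δ193 and 7.56, 7.63 and 7.67 with δscr. The groups were apart in both lines, with changes of 0.34 in H441 (adjusted p = 0.00356 from limma) and 0.36 in A549 (0.0054), each with a standard error of 0.0783. In H2009 PFKM passed the adjusted p but not the fold (0.29, 0.0313), and in H460 the change was -0.05. PFKP (transcript cluster 7925876) was called in H441, at 9.60, 9.43 and 9.36 with δ193 and 8.99, 8.85 and 9.11 with δscr (change 0.48, standard error 0.084, adjusted p = 0.000302 from limma).

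PFKFB3 and PFKFB4 make and break down fructose 2,6-bisphosphate, the activator of phosphofructokinase. PFKFB3 (transcript cluster 7926037) fell by 0.43 in A549 (standard error 0.124, adjusted p = 0.0469 from limma), with 10.32, 10.32 and 10.27 on the δ193 arrays and 10.84, 10.71 and 10.65 on the δscr arrays. In that line it was thus lower while PFKM was higher. The call was lost when any 1 of the 6 arrays of A549 was left out, with changes of -0.47 to -0.38 and adjusted p up to 0.182 from limma. In H2009 its groups were also apart, at a change of -0.41 that missed the threshold (adjusted p = 0.0562 from limma), and it changed by 0.15 in H441 and 0.13 in H460. PFKFB4 was called in no line (-0.36 to -0.02). FBP1 (transcript cluster 8162502), the gluconeogenic enzyme that reverses the phosphofructokinase step, was called lower in H2009, the line with its highest δscr level. Its δ193 arrays read 6.51, 5.70 and 6.38 and the δscr arrays 7.02, 6.48 and 7.11, so the groups overlap at 1 array of each (change -0.67, standard error 0.16, adjusted p = 0.0121 from limma).

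Spread in H441 bears on its 5 calls, RPIA of the pentose phosphate pathway among them. Fitted on the 6 arrays of H441 alone, HK2 and RPIA stayed called (adjusted p = 0.0136 and 0.0401 from limma) and PFKM, PFKP and PGM1 were not (0.198, 0.105 and 0.178). PFKM in H441 also dropped under the 25% fold after quantile normalization over the genes tested (0.32). So did PFKM without replicate 2 of either H441 group (lowest change 0.31) or without δ193 replicate 3 of A549 (0.32), and PGM1 without δ193 replicate 2 of H441 (-0.31). In H2009, FBP1 lost its call in the same kind of fit (0.141) and without any of 3 single arrays, δ193 replicate 2 and δscr replicates 1 and 3, with changes between -0.86 and -0.42 and adjusted p up to 0.109 from limma over all single arrays left out.

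From aldolase to lactate dehydrogenase no member was called in any line. The 10 measured members are ALDOA and ALDOC, which split fructose 1,6-bisphosphate, TPI1, GAPDH and PGK1, which carry the triose phosphates to 3-phosphoglycerate, the enolases ENO1 and ENO2, the pyruvate kinase PKM, and the lactate dehydrogenases LDHA and LDHB. Their 40 changes in the 4 lines were between -0.27 and 0.22, none passed limma's adjusted p (smallest 0.151), and 1 had an unadjusted p under 0.05. The 95% confidence intervals of these changes reached from -0.56 to 0.47. GAPDH, the enzyme that oxidizes glyceraldehyde 3-phosphate, changed by -0.04 (H2009), 0.02 (H441) and 0.06 (A549 and H460 alike), and its widest interval bounds were -0.18 and 0.20. LDHA changed by -0.06, 0.06, 0.0016 and -0.02 in H2009, H441, A549 and H460. Most of them are also among the strongest signals on the arrays: 7 of the 10 have a mean above that of 99% of genes over the 24 arrays. Array values can be compressed at this end of the scale, which was not tested here, so the intervals bound the array values and not the change in RNA. Other isoforms of these steps are on a further list described below. Among those isoforms, the enolase ENO3 fell in H460 (-0.68, adjusted p = 0.00401 from limma). The lactate dehydrogenase LDHC fell in H2009 (-0.41, adjusted p = 0.0315 from limma). GAPDHS, PGK2, PGAM2 and PKLR were called in no line.

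LDHA is shown as the contrast to HK2, since its promoter carries the same letters and it was called in no line. RefSeq (GRCh38.p14) gives it windows at chr11:18394313-18394612 and chr11:18396101-18396400 on the plus strand, with the capitals as above.
LDHA, first start: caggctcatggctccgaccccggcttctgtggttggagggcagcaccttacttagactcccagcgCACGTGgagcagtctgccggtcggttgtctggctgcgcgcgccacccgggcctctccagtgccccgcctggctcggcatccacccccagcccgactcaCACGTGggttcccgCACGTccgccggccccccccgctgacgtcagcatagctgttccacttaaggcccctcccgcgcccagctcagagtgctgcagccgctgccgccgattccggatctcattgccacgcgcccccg
LDHA, second start: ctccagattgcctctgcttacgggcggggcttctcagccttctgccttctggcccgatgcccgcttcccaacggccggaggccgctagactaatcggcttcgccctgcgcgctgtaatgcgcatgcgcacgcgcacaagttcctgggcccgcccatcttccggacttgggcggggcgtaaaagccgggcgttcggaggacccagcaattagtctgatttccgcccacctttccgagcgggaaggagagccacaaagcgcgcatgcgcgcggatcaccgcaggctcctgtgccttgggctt
The first window holds CACGTG at 2 places and a further ACGTG, and the second holds neither.

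These motifs were found both in called members and in members called in no line. RefSeq promoter windows were at hand for 34 of the 35 measured members, all but SLC2A3. ACGTG, on either strand, was found in 5 of 12 members called in at least 1 line and in 12 of 22 called in none, and in 24.9% of all 27305 genes with a window. CACGTG was found in 2 of 12 called members, HK2 and PFKFB3, in 5 of 22 others and in 8.77% of all genes. TGACNNNGC, the core of the antioxidant response element, was found in 1 of 12 called members, in 6 of 22 others and in 16.1% of all genes. Genes with several start sites have more windows and so more chances of a match.

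In the oxidative arm of the pentose phosphate pathway the measured members are H6PD, its first enzyme in the endoplasmic reticulum, PGLS, which hydrolyzes the lactone, and PGD, which yields the second NADPH. None was called. PGD read 11.29, 11.31 and 11.25 on the δ193 arrays of H2009, against 10.99, 10.99 and 10.95 on the δscr arrays. The groups were far apart relative to their spread, and the change of 0.31 passed the adjusted p (0.0065 from limma) but not the fold of 25%. PGD changed by -0.11 (H441), 0.03 (A549) and -0.17 (H460) elsewhere, and the difference among the lines passed (adjusted p = 0.00441, limma F test). H6PD and PGLS changed by -0.21 to 0.12 and by -0.21 to 0.12 with no call.

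In the non-oxidative arm RPIA and TKT were called upward. RPIA (transcript cluster 8043413), which interconverts ribulose and ribose 5-phosphates, was called in both K-ras dependent lines and for the mean over the 4 lines. Its RefSeq promoter (GRCh38.p14, chr2:88691423-88691722, plus strand) is printed for comparison with that of HK2, the other member with a called mean change.
RPIA: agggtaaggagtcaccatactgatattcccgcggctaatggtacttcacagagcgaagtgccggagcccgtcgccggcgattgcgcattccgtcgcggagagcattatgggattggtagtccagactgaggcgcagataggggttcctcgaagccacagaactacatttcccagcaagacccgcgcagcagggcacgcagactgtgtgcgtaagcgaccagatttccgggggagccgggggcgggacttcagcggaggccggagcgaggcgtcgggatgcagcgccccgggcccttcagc
It holds none of the 3 motifs searched and has no capitals. RPIA read 7.63, 7.56 and 7.35 on the δ193 arrays of H2009, against 6.86, 7.18 and 7.07 on the δscr arrays. In H441 the values were 8.31, 8.11 and 8.43 with δ193 and 7.66, 7.70 and 7.56 with δscr. The δ193 arrays were above the δscr arrays in both lines, by 0.48 in H2009 (adjusted p = 0.00876 from limma) and 0.64 in H441 (0.000219), with a standard error of 0.109 in each. The call in H2009 was lost without replicate 1 of either group (lowest change 0.39, adjusted p up to 0.0762 from limma). The δ193 arrays were also above in H460 (0.27, adjusted p = 0.173 from limma), while A549 changed by 0.12 (0.717). The mean change over the 4 lines was 0.38 (standard error 0.0544, adjusted p = 2.6e-05 from limma).

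TKT (transcript cluster 8088106), the transketolase that moves carbon between pentose phosphates and glycolysis, read 11.66, 11.67 and 11.59 on the δ193 arrays of H2009, against 11.17, 11.15 and 11.12 on the δscr arrays. The change was 0.49 (standard error 0.0654, adjusted p = 4.13e-05 from limma) and the largest of any member in H2009 apart from FBP1. In the other lines TKT changed by 0.14 (H441), 0.04 (A549) and -0.06 (H460), and the difference among lines passed (adjusted p = 0.001, limma F test). TALDO1, the transaldolase that works beside it, went the other way in H460, at 10.50, 10.49 and 10.47 with δ193 and 10.79, 10.80 and 10.76 with δscr. That change, -0.30, passed the adjusted p (0.0097 from limma) without reaching the 25% fold. RPE, the epimerase of the arm, and TKTL1, a relative of TKT, were called in no line (-0.18 to 0.19 and 0.02 to 0.12).

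PRPS1 and PRPS2 turn ribose 5-phosphate into phosphoribosyl pyrophosphate for nucleotide synthesis, and both were lower in A549 with δ193. PRPS2 (transcript cluster 8166049) read 9.35, 9.06 and 9.17 on the δ193 arrays, against 9.96, 9.74 and 9.73 on the δscr arrays. PRPS1 (transcript cluster 8169240) read 9.48, 9.40 and 9.40 with δ193 and 9.86, 9.74 and 9.70 with δscr. The groups did not overlap for either gene, and the changes were -0.62 for PRPS2 (standard error 0.118, adjusted p = 0.00192 from limma) and -0.34 for PRPS1 (0.0875, adjusted p = 0.0228). The PRPS1 call was lost when δ193 replicate 2 or 3 or δscr replicate 1 or 2 was left out (smallest change -0.29, adjusted p up to 0.118 from limma). Neither gene was called in another line, where PRPS2 changed by 0.25 (H2009), 0.09 (H441) and -0.16 (H460) and PRPS1 by 0.03, 0.20 and 0.10. DERA and RBKS, which handle deoxyribose phosphate and free ribose, were not called (-0.24 to 0.10 and -0.07 to 0.20), and PGM2, the phosphopentomutase, changed by -0.15 to 0.15.

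**Figure D3:**
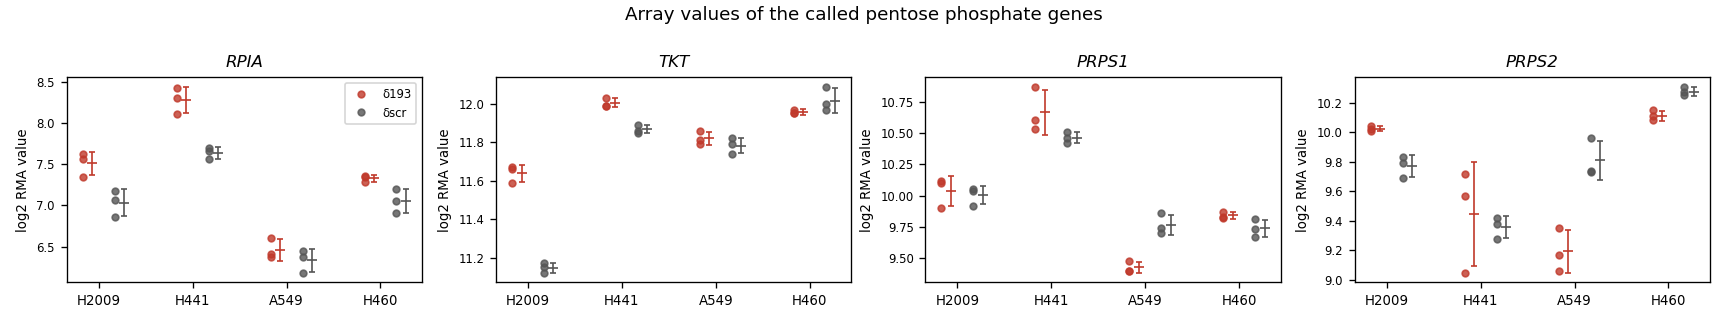
Log2 RMA value of each array for pentose phosphate members, with the δ193 points left of the δscr points in each line and bars for the mean and SD of 3 arrays. RPIA is higher with δ193 in H2009 and H441, TKT in H2009, and both PRPS genes are lower with δ193 in A549.

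The lines themselves differed in these genes before PKCδ was depleted. Over the δscr arrays, 31 of 35 members differed among the lines (88.6%, against 73.7% of all genes, limma F test), and the exceptions were GAPDH, LDHB, TKTL1 and RBKS (adjusted p = 0.113, 0.66, 0.905 and 0.296). The range between the highest and the lowest line had a median of 0.80 over the members and 0.63 over all genes. The members with the widest ranges were SLC2A3 (6.06, wider than in 99.9% of genes), PFKFB3 (3.71), FBP1 (3.51), HK2 (3.04) and ALDOC (3.02). At the other end, LDHB and GAPDH had ranges of 0.08 and 0.17.

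A549 stood apart at the entry of glycolysis. Its δscr mean of SLC2A3 was 9.71, with 10.13, 9.39 and 9.59 on its arrays, against 4.63 in H441, 3.95 in H2009 and 3.65 in H460. H2009 and H460 were not distinguished there (adjusted p = 0.257 from limma). HK2 was lowest in A549 at 5.53, against 8.57 in H441, 8.26 in H2009 and 8.17 in H460, of which H2009 and H460 were not distinguished (adjusted p = 0.623 from limma). HK1 was lowest in A549 as well (6.83, against 9.17 in H441, 8.73 in H460 and 8.12 in H2009), as was PFKM (7.62, against 9.35, 8.71 and 8.51 in the same order). PFKFB3 was highest in A549 at 10.73, above H2009 (8.24), H460 (7.60) and H441 (7.02). A549 thus had the highest levels of SLC2A3 and PFKFB3 and the lowest of HK1, HK2 and PFKM among the 4 lines.

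H2009 stood apart in FBP1, at 6.87, against 3.76 in H441, 3.39 in H460 and 3.35 in A549, where neither H460 and A549 nor H441 and H460 were distinguished (adjusted p = 0.881 and 0.0555 from limma). It also had the highest ALDOC (8.66, then 7.67 in H441, 6.97 in H460 and 5.64 in A549) and PGM2 (10.12, then 9.03 in H460, 8.65 in H441 and 8.19 in A549). ENO2 was highest in H2009 (7.59) and A549 (7.47), which were not distinguished (adjusted p = 0.498 from limma), then H441 (6.96) and H460 (5.75).

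Of the pentose phosphate enzymes, PGD, TKT and TALDO1 were lowest in H2009. PGD had a δscr mean of 10.98 in H2009, against 11.69 in H441, 11.79 in H460 and 12.35 in A549, with H441 and H460 not distinguished (adjusted p = 0.218 from limma). TKT was 11.15 in H2009, against 11.78 in A549, 11.87 in H441 and 12.02 in H460, and neither A549 and H441 (0.278) nor H441 and H460 (0.0632) were distinguished. TALDO1 was 10.03 in H2009, against 10.52 in A549, 10.57 in H441 and 10.78 in H460, and again A549 and H441 were not distinguished (0.566). TKT and PGD, both higher with δ193 in H2009 at an adjusted p under 0.05, thus had their lowest δscr level in that line. RPIA was highest in H441 (7.64), then H460 (7.05) and H2009 (7.03), which were not distinguished (0.922), then A549 (6.33). RPE was highest in H2009 (8.29, against 7.78 in H441, 7.61 in H460 and 7.48 in A549), and its neighbours below H2009 were not distinguished (0.137 and 0.291). PGLS was lower in A549 (6.14) than in the others (6.63 to 6.66), H6PD was highest in H441 (6.33, against 5.54 to 5.77 in the others, which were not distinguished), and TKTL1 lay at 3.9 to 4.0 in all lines.

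**Figure D4:**
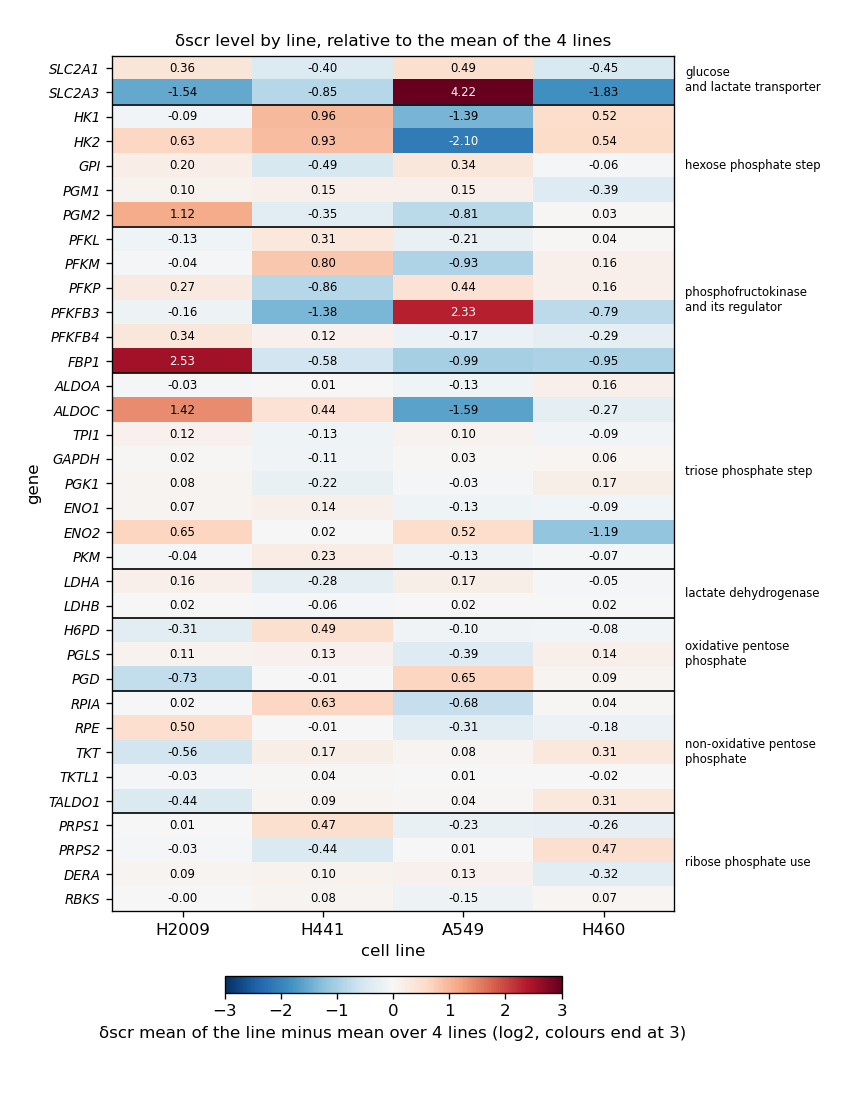
δscr mean of each member (rows) in each line (columns) minus its mean over the 4 lines, on the log2 scale, with colours that end at 3. SLC2A3 in A549 lies beyond that end, and HK2, HK1 and ALDOC are lowest in A549 while FBP1 is highest in H2009.

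Between the K-ras classes, 18 of 35 members differed at baseline in δscr cells (51.4%, against 33.8% of all genes), of which 11 were higher and 7 lower in the dependent lines, beside 15.1% higher and 18.7% lower among all genes. Those higher included FBP1 (1.94), ALDOC (1.86), HK2 (1.56) and HK1 (0.87), and those lower SLC2A3 (-2.39), PFKFB3 (-1.54), PGD (-0.74) and PFKP (-0.60), as the dependent mean minus the independent mean. Each class holds 2 lines, so these p-values measure the spread between arrays and not between lines. The differences in FBP1, SLC2A3, PFKFB3, HK2 and HK1 each come mainly from 1 line, H2009 for FBP1 and A549 for the others, as the means by line above show. That in PFKP comes mainly from H441, with a δscr mean of 8.98, against 10.01 in H460, 10.12 in H2009 and 10.29 in A549.

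The effect of δ193 itself was compared between the classes, which is the question the design puts. It differed for 4 of 35 members (11.4%, against 4.65% of all genes, 2.63% higher and 2.02% lower). TKT and PRPS2 changed more upward in the dependent lines, by 0.32 (95% confidence interval 0.19 to 0.46, adjusted p = 0.00451 from limma) and 0.56 (0.32 to 0.81, adjusted p = 0.00622). SLC2A1 and HK1 changed more upward in the independent lines, with differences of -0.43 (-0.62 to -0.25, adjusted p = 0.00509 from limma) and -0.36 (-0.53 to -0.19, adjusted p = 0.0127). Here too each class holds 2 lines, so these p-values and intervals measure the spread between arrays and not between lines. For each of the 4 genes a single line carried the call, namely H2009 for TKT, A549 for PRPS2 and HK1, and H460 for SLC2A1. PRKCD itself had a class difference of -0.68 that missed the threshold (adjusted p = 0.0516 from limma), and its part in these differences was not tested. RPIA, called in both dependent lines and in neither independent line, had a class difference of 0.36 that missed the threshold (adjusted p = 0.058 from limma). Differences among the 4 lines, regardless of class, passed for 12 members (34.3%, against 14.1% of all genes, limma F test).

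**Figure D5:**
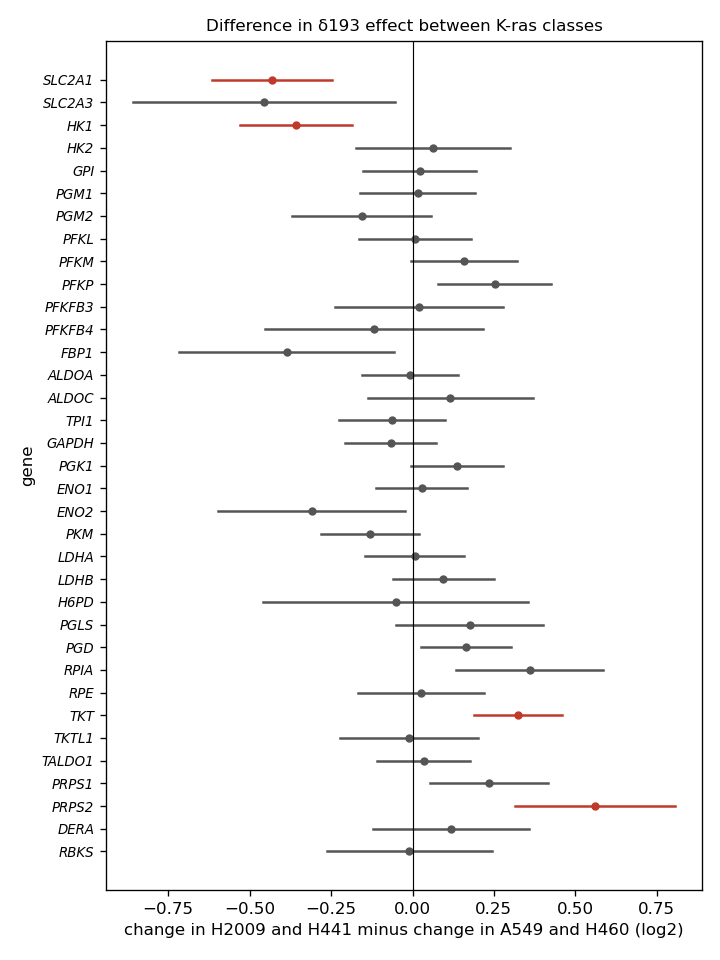
Difference in the change with δ193 between the K-ras dependent and independent lines for each member, as dependent minus independent on the log2 scale, with 95% confidence intervals and called members in red. TKT and PRPS2 lie right of 0 and HK1 and SLC2A1 left of it, and most other intervals cross 0.

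On the mean over the 4 lines, HK2 and RPIA were the called members (5.71%, against 3.63% of all genes, 1.49% higher and 2.14% lower), both higher with δ193. PFKM (0.24), PFKP (0.19) and TKT (0.15) were higher and PGM1 lower (-0.25) at an adjusted p under 0.05 but under the 25% fold (0.00015, 0.00267, 0.00223 and 0.000206 from limma).

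Around the pathway, further lists of genes were read in the same way. Of 27 measured other enzymes and carriers of glycolysis and gluconeogenesis, 0 rose and 1 fell in H2009, 1 rose and 4 fell in H441, 2 rose and 1 fell in A549, and 0 rose and 1 fell in H460. These were 3.7%, 18.5%, 11.1% and 3.7% of the list in H2009, H441, A549 and H460, beside 4.91%, 14.3%, 4.63% and 5.45% of all genes. The larger changes were in A549, with the sugar carrier SLC2A12 (1.40, adjusted p = 1.9e-07 from limma) and the monocarboxylate carrier SLC16A7 (1.36, 1.84e-07). PCK2, the mitochondrial enzyme that makes phosphoenolpyruvate, rose in H441 (1.07, 0.00504), and ENO3, the muscle enolase, fell in H460 (-0.68, 0.00401).

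Of 12 genes that govern the entry of pyruvate into mitochondria, none was called in H2009, 1 rose and 2 fell in H441, 2 rose and 1 fell in A549, and 1 rose and 1 fell in H460. These were 0%, 25%, 25% and 16.7% of the list, beside 4.91%, 14.3%, 4.63% and 5.45% of all genes in the same order. PDK3, a kinase that switches off pyruvate dehydrogenase, fell in 3 lines, by 0.58 (H441), 0.61 (A549) and 0.45 (H460) on the log2 scale (adjusted p = 0.00149, 0.00221 and 0.0247 from limma). PDK4, of the same family, fell in H441 (-0.62, 0.0367), where PDK1 rose (0.47, 0.011). The list thus did not move one way in H441.

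Of 20 genes on branches that leave glycolysis, 1 rose and 0 fell in H2009, 6 rose and 2 fell in H441, 2 rose and 0 fell in A549, and 0 rose and 1 fell in H460. The called share of the list was 5%, 40%, 10% and 5% for H2009, H441, A549 and H460, beside 4.91%, 14.3%, 4.63% and 5.45% of all genes. PHGDH, the first enzyme of serine synthesis from 3-phosphoglycerate, rose in 3 lines, by 0.59 (H2009), 0.60 (H441) and 0.66 (A549) on the log2 scale (adjusted p = 0.00704, 0.00223 and 0.00238 from limma). The next enzymes of that branch, PSAT1 (0.64, 0.00246) and PSPH (0.76, 0.00136), were called in H441 only, and GBE1, the glycogen branching enzyme, rose in A549 (0.55, 0.000105). Serine synthesis branches off at 3-phosphoglycerate, among the triose steps where no member was called.

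Of 16 measured genes of the hypoxia response outside the members, 3 fell in H2009, 2 rose and 2 fell in H441, 1 rose and 1 fell in A549, and none was called in H460. The called share was 18.8%, 25%, 12.5% and 0% in the 4 lines, beside 4.91%, 14.3%, 4.63% and 5.45% of all genes. STC2, a secreted glycoprotein, rose in H441 (1.08) and A549 (1.26), VEGFA, the angiogenic growth factor, rose in H441 (0.72), and ADM, a vasoactive peptide, fell in A549 (-0.66). Of 17 targets of NRF2, which controls the antioxidant response and in some cells pentose phosphate enzymes, 5 rose and 0 fell in H2009, 1 rose and 3 fell in H441, 1 rose and 0 fell in A549, and 1 rose and 4 fell in H460. AKR1B10, an aldo-keto reductase, rose by 1.63 in H2009 and fell by 1.22 in H441 and 1.13 in H460. The called NRF2 targets made up 29.4%, 23.5%, 5.88% and 29.4% of the list in H2009, H441, A549 and H460, beside 4.91%, 14.3%, 4.63% and 5.45% of all genes. The median changes over all 17 measured targets, called or not, were 0.25, -0.0082, 0.18 and -0.13 in that order. Of 13 sensors and regulators of glucose use, 1 rose and 0 fell in H2009, 1 rose and 1 fell in H441, 3 rose and 1 fell in A549, and 0 rose and 2 fell in H460. These were 7.69%, 15.4%, 30.8% and 15.4% of the list, beside 4.91%, 14.3%, 4.63% and 5.45% of all genes. In H460, PPARGC1A, a coactivator of gluconeogenesis and mitochondrial genes, fell by 1.72, and MLXIPL (ChREBP), a glucose-responsive transcription factor, fell by 0.79. MLXIPL was called higher in H2009 (0.36) and A549 (0.38).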

How the data were processed

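Total RNA of the 24 arrays was labelled and hybridized to Affymetrix Human Gene 1.0 ST arrays. The authors deposited log2 values from RMA in Affymetrix Power Tools, which corrects background, makes array distributions equal and summarizes probes per transcript cluster. Versions were not given in the sources used here. Array values can be compressed near both ends of the scale, which was not tested here. The depth of an array has no count, so the number of arrays limits the precision. Symbols came from the platform annotation, updated by Entrez ID for 19429 of 19460 single-symbol clusters, and the cluster with the highest mean stood for each of 18417 genes. limma 3.58.1 in R 4.3.3 fitted 1 coefficient for each of the 8 groups, with 95% confidence intervals from the moderated spread, and its moderated F test compared lines. Calls needed an adjusted p under 0.05 and a 25% fold. The code was tested on simulated arrays. Alternatives were the methods' Student test, other fold thresholds, single-line fits, other spreads, normalizations and cluster choices, a replicate block, and the omission of single arrays. Array weights and a fit without H441 were added after seeing the data. K-ras classes come from the study.

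Named are PRKCD, all members, with array values for those called in any line, δscr values for the 10 widest ranges and the pentose phosphate members, and up to 4 called genes with the largest change per further list. Other genes are given where a count is explained or where they share a step with members. The members and lists were chosen with earlier results of these data known. The lists were written from memory. Promoters come from RefSeq (GRCh38.p14), where 36 of 38 members had a window.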

Additional observations from a re-analysis of the deposited data

Results flagged for a closer look

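For 12 members the change with δ193 differed among the 4 lines by limma's F test. The adjusted p was 1.69e-05 for HK1, 0.001 for TKT, 0.00329 for SLC2A1, 0.004 for PRPS2, 0.00441 for PGD, 0.00548 for HK2, 0.00643 for TALDO1, 0.0159 for PRPS1, 0.0213 for PFKFB3, 0.0283 for FBP1, 0.03 for PFKM and 0.0357 for PFKP. PGD and TALDO1 are on this list without a call in any single line.

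The change also differed between the K-ras dependent and independent lines, as dependent minus independent, for PRPS2 (0.56), TKT (0.325), HK1 (-0.358) and SLC2A1 (-0.432). With 2 lines in each class, line and class cannot be told apart for these genes.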

How the results depend on the processing

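Of 234 values that the 15 called member changes took under the alternatives, none changed direction and 26 lost the call. HK1 in A549, HK2 in H441 and H460, RPIA in H441, TKT in H2009, SLC2A1 in H460 and PRPS2 in A549 kept it in all of these, which leave out other fold thresholds and the adjusted Student test, given below as counts only. Without a fold threshold 5 members passed in H2009 and 8 for the mean over lines, against 3 and 2. At 1.5-fold, 1 passed for H2009, 2 for H441, 2 for A549 and 0 for H460, and 0 for the mean and for the class difference. With H441 fitted on its own 6 arrays 2 members passed there, against 5, and 2.18% of all genes. Array weights gave 7 members for the class difference, against 4. The cause was not tested.

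With 1 array left out the counts were 1 to 4 in H2009 (1 without δscr replicate 1), 4 to 6 in H441, 2 to 4 in A549 (2 without δ193 replicate 3, 3 without δ193 replicate 2 or δscr replicate 1 or 2), 2 to 2 in H460 and for the mean, and 3 to 7 for the class difference (7 without H441 δ193 replicate 2). They were 10 to 15 for differences of the change among lines, 18 to 18 for the baseline between classes and 31 to 31 for the baseline among lines. PFKFB3 in A549 lost its call without any of the 6 arrays (adjusted p up to 0.182 from limma) and PRPS1 without 4 of them (up to 0.118). RPIA in H2009 lost it without δ193 or δscr replicate 1 (up to 0.0762), PFKM in H441 without replicate 2 of either group, PFKM in A549 without δ193 replicate 3 and PGM1 in H441 without δ193 replicate 2.

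By the methods' Student test without adjustment 3 members passed for H2009, 5 for H441, 5 for A549 and 2 for H460. Among all genes 7.23%, 9.76%, 6.2% and 8.73% passed in the same order of lines. After the Benjamini-Hochberg adjustment 1, 0, 0 and 2 members passed. Of all 18417 genes only 1 passed the adjusted test in H441 and 38 in A549, against 907 in H460. The counts of 0 in H441 and A549 thus say little about the members. Replicate numbers did not clearly pair the arrays in H441, A549 and H460 (correlations of -0.0854 to 0.0984). In H2009 the correlations were 0.284, 0.16 and 0.0955, and that line held the 2 of 12 pairs above 0.1. With the replicate number as a block the counts were 3, 5, 4 and 2 in the lines, 2 for the mean, 5 for the class difference and 10 for differences among lines, and PFKFB3 in A549 had an adjusted p of 0.0752 from limma. FBP1 is below the median level and was not tested among genes above it.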
